A study of Mus musculus with 136 samples.

Results

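The 10 genes described here form the naive pluripotency network of mouse embryonic stem cells (ESCs): Pou5f1, Sox2, Nanog, Klf4, Esrrb, Zfp42, Tfcp2l1, Prdm14, Tbx3 and Dppa5a. They were taken by name from 21887 protein-coding genes by a rule that used no measured value, although the set was chosen with earlier results of these data known, and each was given a window of its mm10 gene body plus 10 kb on both sides. ChIP-seq peaks of 10 lists were collected in these windows. The series compared E14JU ESCs, a male mouse line grown untreated on gelatin in serum with LIF, whose MCM2 had been mutated in its histone-binding domain (MCM2-2A clones 439 and 442) with wild-type cells (WT clone 410). SUZ12 was mapped in crosslinked, sonicated chromatin of all 3 clones, with 3 replicates per clone. H3K27me3, H3K4me3, H3K9me3 and H3K27ac were mapped in native MNase-digested chromatin, and only lists of WT clone 410 were used here: 3 lists of a rescue experiment (3 replicates each, no H3K27ac) and 4 lists of the original experiment (2 replicates each). Each clone is a single cell line, and both kinds of ChIP used a Drosophila spike-in. The authors deposited 1 list per clone and mark with replicates combined, so the error between replicates is unknown, no difference was tested, and all comparisons are descriptions of these lists.

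Naive pluripotent cells are held in self-renewal by a small set of transcription factors that bind the same enhancers and activate one another. Pou5f1 (the POU factor OCT4), Sox2 (its HMG-box partner) and Nanog (a homeodomain protein) are the core. Klf4, Esrrb, Tfcp2l1 and Tbx3 sustain the naive state downstream of LIF and WNT signals and fall away as cells become primed. Prdm14 sustains it by repressing FGF signalling and falls away likewise. Zfp42 (REX1) and Dppa5a (ESG1, an RNA-binding protein) are outputs used as markers of that state. SUZ12 belongs to the core of PRC2, the Polycomb complex that deposits H3K27me3. H3K4me3 marks active or poised promoters, H3K27ac active promoters and enhancers, and H3K9me3 heterochromatin and silenced repeats.

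The 10 genes fell into groups by their Polycomb state. Pou5f1, Nanog, Zfp42 and Dppa5a had no peak of any SUZ12 or H3K27me3 list in their windows, which held for 4 of the 10 genes and for 20.9% of all protein-coding genes. Sox2, Klf4, Esrrb, Prdm14 and Tbx3 had SUZ12 in all 3 clones, 5 of 10 against 25.0% of all genes. Tfcp2l1 had H3K27me3 and no SUZ12. The same 5 genes had a SUZ12 peak in clone 439 (30.8% of all genes), in clone 442 (32.6%) and in WT clone 410 (26.5%). With only the stronger 50% of each list kept, they were 2 in clone 439 (Esrrb, Prdm14), 1 in clone 442 (Esrrb) and 3 in WT (Esrrb, Prdm14, Tbx3). Within those genes, the ranks of SUZ12 peaks differed between clones. The Tbx3 peaks ranked far weaker in both MCM2-2A clones than in WT, and the Klf4 and Esrrb peaks ranked somewhat weaker in both. The Sox2 peak downstream of the gene ranked stronger in both, and the clones lay on either side of WT at Prdm14.

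CG-rich promoters are a known feature of PRC2 targets, so a CG-rich and a CG-poor start with SUZ12 are shown beside a CG-rich and a CG-poor start without it. The 300 bases around each start (250 before and 50 after, from RefSeq on GRCm38.p6, the assembly called mm10) are printed 5′ to 3′ on the strand of the gene, with every CG in capitals. Klf4 (chr4:55532426-55532725, minus strand) and the downstream start of Esrrb (chr12:86421394-86421693, plus strand) lay under SUZ12 peaks in all 3 clones, and Sox2 (chr3:34649745-34650044, plus strand) and Nanog (chr6:122707239-122707538, plus strand) did not.
Klf4: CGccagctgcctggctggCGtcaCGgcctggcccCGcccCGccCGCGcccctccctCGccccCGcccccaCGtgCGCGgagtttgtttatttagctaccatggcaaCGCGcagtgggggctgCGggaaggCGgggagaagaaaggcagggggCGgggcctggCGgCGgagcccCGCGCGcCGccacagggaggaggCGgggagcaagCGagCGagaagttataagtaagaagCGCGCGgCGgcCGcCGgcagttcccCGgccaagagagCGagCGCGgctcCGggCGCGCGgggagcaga
Esrrb downstream start: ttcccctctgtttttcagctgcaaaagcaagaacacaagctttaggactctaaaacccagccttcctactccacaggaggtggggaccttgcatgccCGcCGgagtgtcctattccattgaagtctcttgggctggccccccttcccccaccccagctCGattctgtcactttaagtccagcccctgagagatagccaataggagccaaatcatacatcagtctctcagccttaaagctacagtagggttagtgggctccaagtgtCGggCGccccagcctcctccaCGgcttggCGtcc
Sox2: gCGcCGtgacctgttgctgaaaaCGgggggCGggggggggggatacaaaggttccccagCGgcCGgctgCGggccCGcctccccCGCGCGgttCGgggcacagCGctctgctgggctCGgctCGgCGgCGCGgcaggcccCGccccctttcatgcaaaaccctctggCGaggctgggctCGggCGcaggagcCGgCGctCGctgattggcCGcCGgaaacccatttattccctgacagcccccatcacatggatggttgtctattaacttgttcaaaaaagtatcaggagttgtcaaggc
Nanog: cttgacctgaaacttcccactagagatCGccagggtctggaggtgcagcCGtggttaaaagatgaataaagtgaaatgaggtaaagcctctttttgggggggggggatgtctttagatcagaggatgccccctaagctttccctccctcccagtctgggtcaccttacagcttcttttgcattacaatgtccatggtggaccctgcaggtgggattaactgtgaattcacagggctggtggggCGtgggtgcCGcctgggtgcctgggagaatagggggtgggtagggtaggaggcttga
Klf4 had 40 CG and Esrrb 7, both under SUZ12. Sox2 had 27 and Nanog 4, both outside it. Over 21263 promoter entries the median was 13.0 CG, with 22.0 among the 3315 entries whose start lay under a WT SUZ12 peak and 10.0 among the 17948 others. The Esrrb start was therefore poor in CG for a start under SUZ12, and the Sox2 start was rich in CG for one outside it.

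RefSeq promoter entries were matched for 7 of the 10 genes. The other starts held 11 CG (Zfp42 and the upstream Pou5f1 start), 6 CG (the downstream Pou5f1 start), 7 CG (the upstream Esrrb start) and 21 CG (Tfcp2l1). These promoters were also searched on both strands for exact matches to motifs bound by members of the network. Variant forms of these motifs were not counted. The octamer ATGCAAAT, bound by OCT4, was found at Zfp42 alone of the 7 genes, at position -186 from the start, and 1.66% of all promoters hold it. CATTGT, a SOX motif, was found at Nanog, at the downstream Pou5f1 start and at the upstream Esrrb start (11.0% of all promoters). GGGNGTGG, a KLF-type motif, was found at the upstream Pou5f1 start, Nanog, Zfp42 and Tfcp2l1 (19.4%). TCAAGGTCA, bound by ESRRB, was in none of them (0.334%). A match is a run of letters and not a measured binding site.

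Tbx3 (chr5:119670534-119684724), a T-box factor that acts downstream of LIF signalling in naive ESCs, carried the broadest SUZ12 of the 10 genes. The SUZ12 peaks covered 6.63 kb of its window in clone 439 and 17.2 kb in clone 442, against 19.2 kb in WT. In WT, 99.4% of protein-coding genes had a smaller share of their window under SUZ12. The strongest Tbx3 peak in clone 439 had a fold enrichment over local background of 6.10 and ranked 6159 of 7571 peaks. In clone 442 the strongest had a fold enrichment of 9.15 and ranked 4570 of 7840. In WT it had a fold enrichment of 22.6 and ranked 2073 of 6298. Expressed as a share of each list, with 0% strongest and 100% weakest, these ranks were 81.3% in clone 439 and 58.3% in clone 442, against 32.9% in WT. By fold enrichment both mutant lists thus placed Tbx3 in their weaker part, and the WT list placed it in its stronger part. The median fold enrichment of all peaks in a list was 12.4 in clone 439 and 11.1 in clone 442, against 13.4 in WT. Ranked by width, the widest Tbx3 peak lay at 15.0% in clone 439 and 5.11% in clone 442, against 2.62% in WT. The order was the same by width, but Tbx3 was then among the wider peaks of every list.

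The same order held at each Tbx3 peak that could be matched by overlap. The WT peak from -10.1 to -5.54 kb of the gene start (fold enrichment 19.5, rank 37.6%) had counterparts ranked 81.3% in clone 439 and 58.3% in clone 442. The difference of 43.7 points in clone 439 was the largest of all 5826 WT peaks with a counterpart there: 0 had a larger one. In clone 442 the difference of 20.7 points was exceeded by 39 of 5880 matched peaks. The WT peak at +9.65 to +10.7 kb, inside the gene body, ranked 89.3% in clone 439 and 88.5% in clone 442, against 67.1% in WT. Only 22 matched peaks in clone 439 and 32 in clone 442 had a larger difference. The WT peak at +15.0 to +17.8 kb, past the gene's end, had no counterpart in clone 439 and ranked 73.5% in clone 442, against 58.8% in WT. Both comparisons share the WT list. The general shift ran the other way: across all matched WT peaks the median difference was -5.70 points in clone 439 and -6.98 points in clone 442. The lists of the clones were longer (7571 and 7840 peaks, against 6298 in WT), so an equal rank number gives a stronger share there. The part of list length in this shift was not tested.

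**Figure D1:**
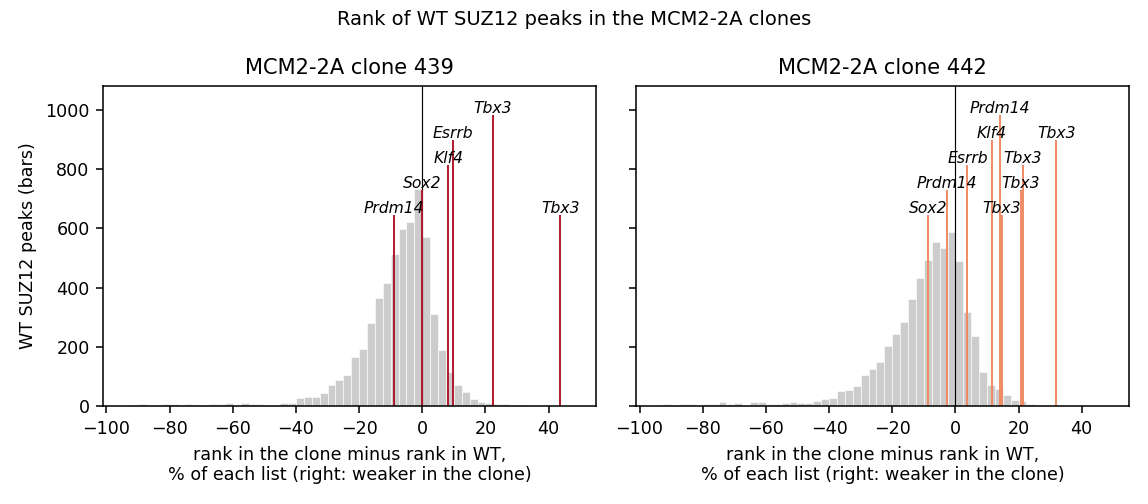
Rank of each matched WT SUZ12 peak in MCM2-2A clone 439 (left) and clone 442 (right) minus its rank in WT, in percentage points of each list; grey bars count all matched WT peaks (5826 and 5880) and coloured lines mark the peaks of the 5 genes. The Tbx3 lines lie at the far right of both distributions (22.3 and 43.7 points in clone 439, 14.7 to 32.0 in clone 442), where a peak ranks weaker in the clone than in WT.

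The peak over the Tbx3 start itself was the widest SUZ12 peak at any of the 10 genes. It ran from -5.21 to +5.69 kb in WT, (chr5:119665322-119676224), was 10.9 kb wide and ranked 165 of 6298 by width. Clone 442 had peaks of 6.98 kb (-3.94 to +3.04 kb, fold enrichment 8.02) and 1.20 kb (fold enrichment 3.63) in its place, which covered 75.0% of it. Clone 439 had no peak there. Such an absence was rare: 7.49% of all WT peaks had no counterpart in clone 439, but among the 2073 WT peaks at least as enriched as this one only 3 did (0.145%). Those 3 were all wide, 10.9 kb at Tbx3, 8.27 kb near Nkx2-3 and 18.1 kb at Bcor, against a median of 2.19 kb over the WT list. Of the same 2073 WT peaks, 3 had no counterpart in clone 442, none of them at Tbx3, and these were 5.69, 11.5 and 5.41 kb wide. In the other direction, 11 of the 2492 clone 439 peaks and 10 of the 2580 clone 442 peaks within the same top share of their lists had no WT counterpart, and their median widths were 7.32 kb and 12.2 kb. Each list therefore lacked a few strong peaks that another list held, all of them 5.01 kb or wider, and the part of this in the missing Tbx3 start peak was not tested. When all peaks of 8 kb or wider were left out of the 3 lists, a choice made after seeing the data, Tbx3, Klf4 and Esrrb remained the 3 genes ranked weaker in both clones.

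A Tbx3 site with SUZ12 in both MCM2-2A clones and not in WT lay in the gene body, at +11.8 to +13.4 kb. Its peaks had a fold enrichment of 5.45 in clone 439 and 5.87 in clone 442. Tbx3 was the only gene of the 10 with such a site, against 5.39% of all genes. All Tbx3 SUZ12 sites lay under WT H3K27me3 in both experiments. That domain was 48.3 kb wide in the rescue experiment and 45.3 kb in the original one, and it covered 100% and 92.5% of the window. H3K4me3 covered 83.3% (rescue) and 76.4% (original) and H3K27ac 60.4% of the same window, each more than at 99.4% or more of all protein-coding genes, and no H3K9me3 region was present. At the Tbx3 SUZ12 sites the overlap with H3K27ac ranged from 47.0% (the site from -10.1 to -5.54 kb) to 100% (the 3 sites inside or past the gene body). The Tbx3 locus thus carried PRC2, H3K27me3, H3K4me3 and H3K27ac over many of the same bases. In a bulk population, marks on the same chromosomes and marks in different cells cannot be told apart.

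**Figure D2:**
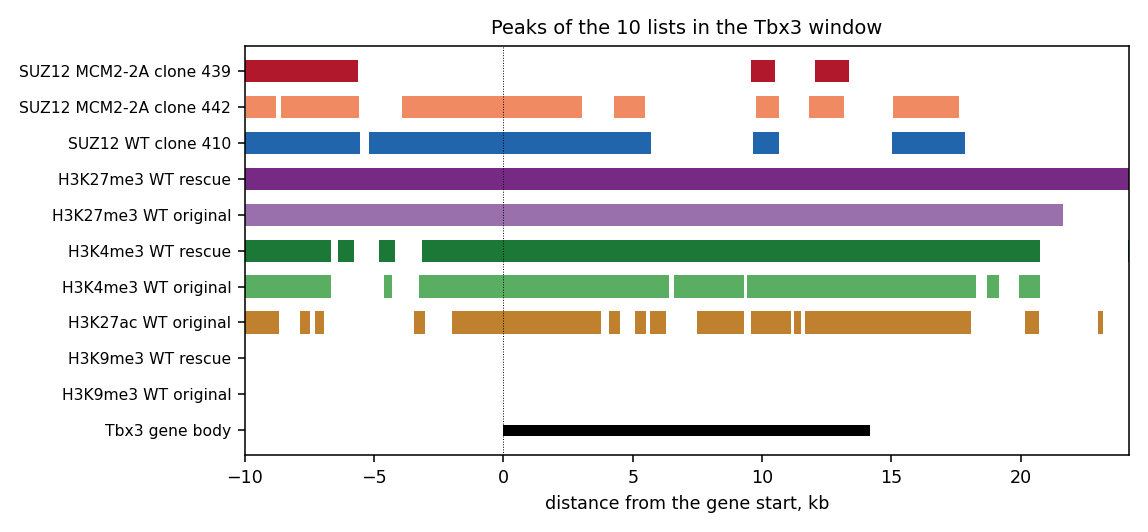
Peaks of the 10 lists in the Tbx3 window, drawn as bars by distance from the gene start in kb, with the gene body in black below. WT SUZ12 covers the start in a 10.9 kb peak, clone 442 has narrower peaks there, clone 439 has none, and WT H3K27me3 spans nearly all of the window, with H3K4me3 over 83.3% (rescue) and 76.4% (original) and H3K27ac over 60.4% of it.

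Klf4 (chr4:55527137-55532475), a zinc-finger factor of the naive network and a reprogramming factor, had 1 SUZ12 peak in each clone, over its start. It reached 0.218 kb upstream and 2.32 kb into the gene in clone 439, 0.178 and 2.46 kb in clone 442, and 0.674 and 2.42 kb in WT. The peak was therefore narrower on its upstream side in both mutants. Its fold enrichment was 8.53 in clone 439 and 7.36 in clone 442, against 11.0 in WT. The ranks were 65.7% and 69.1% in the MCM2-2A clones, against 57.4% in WT. A larger rank difference was seen for 4.57% of matched peaks in clone 439 and 2.84% in clone 442. H3K27me3 reached the Klf4 SUZ12 site in the rescue list only, where it covered 69.6% of the site, and H3K27me3 of the original experiment covered 0% of it. Both experiments placed another H3K27me3 region, 12.2 kb (rescue) and 12.3 kb (original) wide, beyond the 3′ end of the gene.

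Esrrb (chr12:86361117-86521628) encodes an orphan nuclear receptor and spans 161 kb, the longest of the 10 genes. Its single SUZ12 peak was the strongest of any of the 10 in every clone and lay over the downstream start printed above, 60.5 kb into the gene (chr12:86420539-86425273 in WT). The fold enrichment was 37.5 in clone 439 and 39.5 in clone 442, against 61.7 in WT. The highest of any peak in the list was also lower in the clones, 145 and 102, against 166 in WT. The part of this list difference in the Esrrb values was not tested. The ranks of the Esrrb peak were 17.3% and 11.5% in the MCM2-2A clones, against 7.72% in WT, where the peak was number 486 of 6298. Its width was 4.08 kb in clone 439 and 3.83 kb in clone 442, against 4.74 kb in WT, and the summit lay 0.921, 0.888 and 0.805 kb past the start. The peak thus ranked weaker and was narrower in both mutants, although 12.3% of matched peaks had a larger rank difference in clone 442. That share is over matched peaks of any strength, and a peak near the top of its list has more room to fall than to rise.

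The Esrrb gene body was divided between opposite chromatin states. H3K27me3 covered its first part, in a domain of 90.3 kb that began 20.5 kb before the gene in the rescue experiment, and in a domain of 44.4 kb from +25.8 to +70.1 kb in the original one. The upstream start, at the beginning of the gene, was under neither H3K4me3 nor H3K27ac, although a rescue H3K4me3 peak began 258 bases after it, and the downstream start was under H3K4me3 in both experiments. From about +103 kb to the 3′ end of the gene, H3K27me3 was absent, and H3K4me3 and H3K27ac were almost continuous up to about +150 kb. Another H3K27me3 region, 28.0 kb wide in the rescue experiment and 28.1 kb in the original one, began past the gene's end, at +168 and +166 kb. Inside the gene, a single H3K4me3 peak was 35.7 kb wide (rescue, +103 to +138 kb) and 30.4 kb wide (original, +105 to +135 kb). In both experiments this was wider than at nearly every other gene. The strongest H3K27ac peak of the gene (9.68 kb, fold enrichment 37.4, rank 362 of 128247) lay at +139 to +149 kb. Only 3.17% of the Esrrb SUZ12 site was under H3K27ac, the smallest share of the 11 SUZ12 sites in the windows. Small H3K9me3 regions were scattered over the gene, 8 in the rescue list and 4 in the original list, 0.541 to 4.94 kb wide. In both lists 2 of them (from +44.5 kb, and from +58.9 kb in the rescue and +59.4 kb in the original list) lay wholly inside the H3K27me3 domain of the original experiment.

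**Figure D3:**
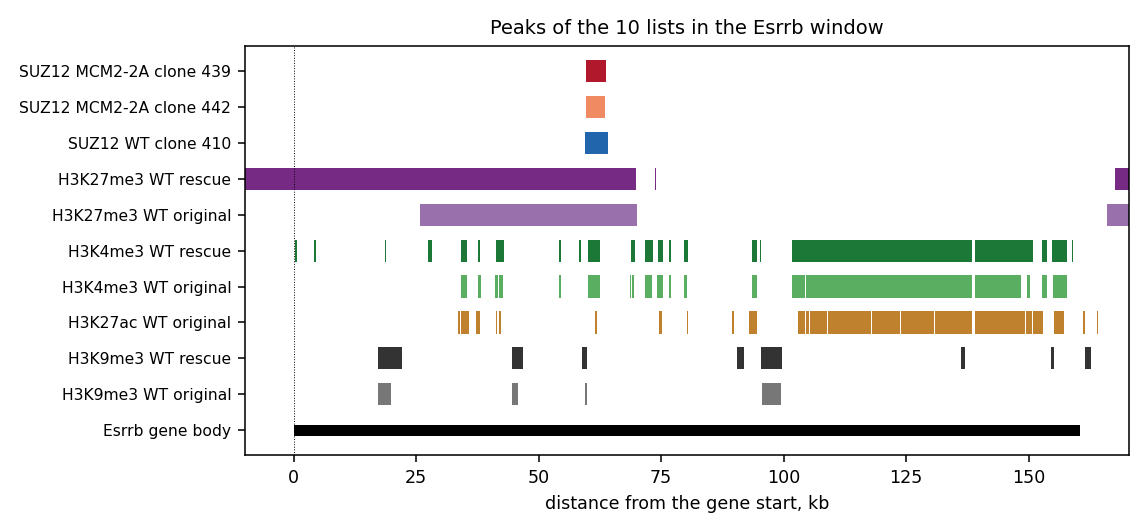
Peaks of the 10 lists in the Esrrb window by distance from the gene start in kb, with the gene body in black below. SUZ12 (59.4 to 64.2 kb in WT) lies inside the H3K27me3 domain, and the wide H3K4me3 and H3K27ac blocks begin at about 103 kb, where H3K27me3 is absent until another region past the gene's end (from 166 or 168 kb).

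Prdm14 (chr1:13113428-13127163), a PR-domain zinc-finger protein that represses FGF signalling and DNA methyltransferase genes in naive cells, had SUZ12 over the higher-coordinate end of its gene. The main peak had a fold enrichment of 21.9 in clone 439 and 9.92 in clone 442, against 17.5 in WT. The ranks were 31.8% in clone 439 and 54.7% in clone 442, against 40.8% in WT. The MCM2-2A clones thus lay on either side of WT, while the widths of the peak were close (3.68 and 3.63 kb in the clones, 3.50 kb in WT). A small neighbouring peak was found in clone 442 (0.576 kb) and in WT (1.08 kb) and not in clone 439. H3K27me3 covered the whole of both sites in a region of 13.0 kb (rescue) and 10.7 kb (original).

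Sox2 (chr3:34649995-34652461) had SUZ12 on both sides and none over the gene. The upstream peak, around -9.23 to -6.77 kb, ranked 67.6% in clone 439 and 59.0% in clone 442, against 67.6% in WT. Downstream, clone 439 had a peak of 4.66 kb (fold enrichment 10.8) and clone 442 one of 4.01 kb (fold enrichment 9.43). The WT peak at this site was 2.76 kb wide with a fold enrichment of 7.65, and it began 10.2 kb past the gene's end, just outside the window. The downstream peak was therefore wider in both mutants on the side facing the gene. Its rank was 55.1% in clone 439 and 57.0% in clone 442, against 72.6% in WT. H3K27me3 covered the upstream site in both experiments and the downstream site in the rescue experiment only. Between the sites, the gene itself was covered by H3K4me3 peaks of 14.5 kb (rescue) and 11.9 kb (original).

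**Figure D4:**
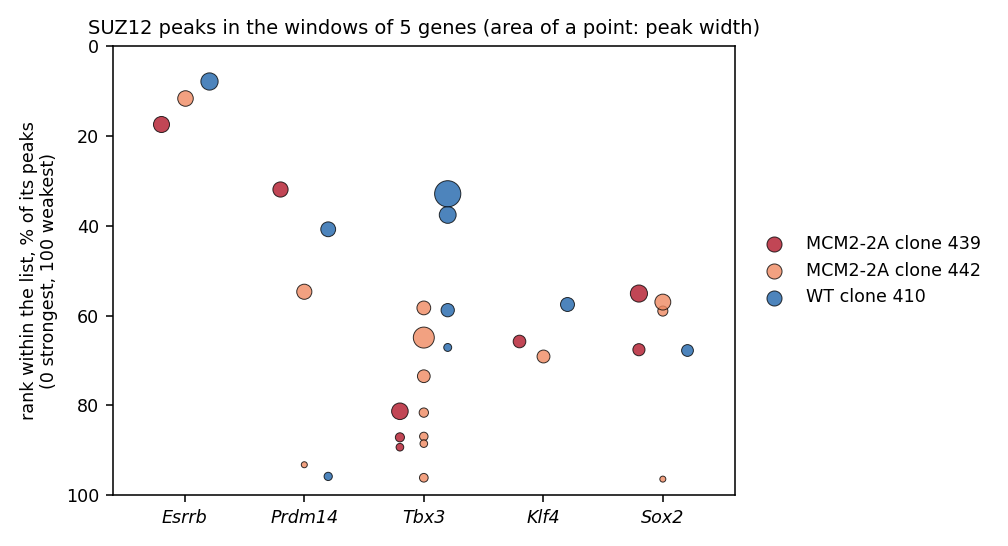
Rank of every SUZ12 peak in the windows of the 5 genes that have one, as a share of its list (0% strongest, at the top), with MCM2-2A clones 439 and 442 left of WT clone 410 and the area of a point giving the peak's width. Tbx3, Klf4 and Esrrb sit lower in both MCM2-2A clones than in WT; the WT peak downstream of Sox2 lies just outside the window and is not drawn.

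Across these 5 genes, the strongest SUZ12 peak ranked weaker in both MCM2-2A clones than in WT at 3 (Klf4, Esrrb, Tbx3), and the share over all 5479 genes with SUZ12 in all 3 lists was 9.75%. Fewer bases of the window lay under SUZ12 in both clones than in WT at 4 (the same genes and Prdm14), against 13.7% of those genes. Across all genes with WT SUZ12, the median ratio of covered bases was 1.08 for clone 439 over WT and 1.14 for clone 442 over WT. At Klf4 the ratios were 0.819 and 0.850, at Esrrb 0.862 and 0.810, at Prdm14 0.803 and 0.918, and at Tbx3 0.345 and 0.897. The 4 genes lay below the general ratio in both clones, and no more than 14.0% of the 5806 genes with WT SUZ12 had a lower ratio than any of them. The strongest Sox2 peak in the window lay downstream in both clones (55.1% and 57.0%) and upstream in WT (67.6%). By this window measure Sox2 ranked stronger in both clones, as did 64.2% of the 5479 genes. The part of list length in that share was not tested. At Sox2 the whole peaks summed to 7002 bp in clone 439 and 6192 bp in clone 442, against 4979 bp in WT.

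The 5 genes with no SUZ12 were Pou5f1 (chr17:35506032-35510777), Nanog (chr6:122707489-122714633), Zfp42 (chr8:43295067-43307009), Tfcp2l1 (chr1:118627923-118685168) and Dppa5a (chr9:78367052-78368199). They differed in how far away the nearest peak lay. At Zfp42 it was 1627 kb from the gene body in clone 439 and 1628 kb in clone 442, against 2025 kb in WT. At Tfcp2l1 it was 366 kb in both clones, against 504 kb in WT, and at Nanog 78.1 and 86.5 kb, against 105 kb in WT. At Dppa5a it was 25.8 and 25.4 kb, against 26.9 kb in WT. At Pou5f1 it was 34.2 and 34.1 kb, against 34.0 kb in WT. The nearest WT peak there was only 0.269 kb wide with a fold enrichment of 2.04. The nearest peaks of the clones were 3.03 kb with 55.1 and 3.64 kb with 28.2. Only the nearest peak of each list was taken, so any further WT peak at this site was not compared. Zfp42 was thus the most isolated from PRC2 sites, and Pou5f1 and Dppa5a had sites within 50 kb.

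All 10 genes had H3K4me3 in the rescue experiment (83.4% of all genes) and in the original one (81.9%), and all 10 had H3K27ac (73.4% of all genes). What set them apart was how much of the window the marks covered. The median share under H3K4me3 was 65.2% (rescue) and 63.7% (original), against 8.64% and 7.50% over all genes, and under H3K27ac it was 59.3% against 3.11%. At Sox2, H3K4me3 covered 97.9% of the window in the rescue experiment and 90.3% in the original one. Sox2, Nanog, Esrrb and Zfp42 had an H3K4me3 peak of at least 10 kb in both experiments, 4 of 10 against 0.717% of all genes. Klf4 and Prdm14 had the narrowest widest H3K4me3 peaks, 5.65 and 5.61 kb (rescue) and 3.62 and 4.15 kb (original).

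**Figure D5:**
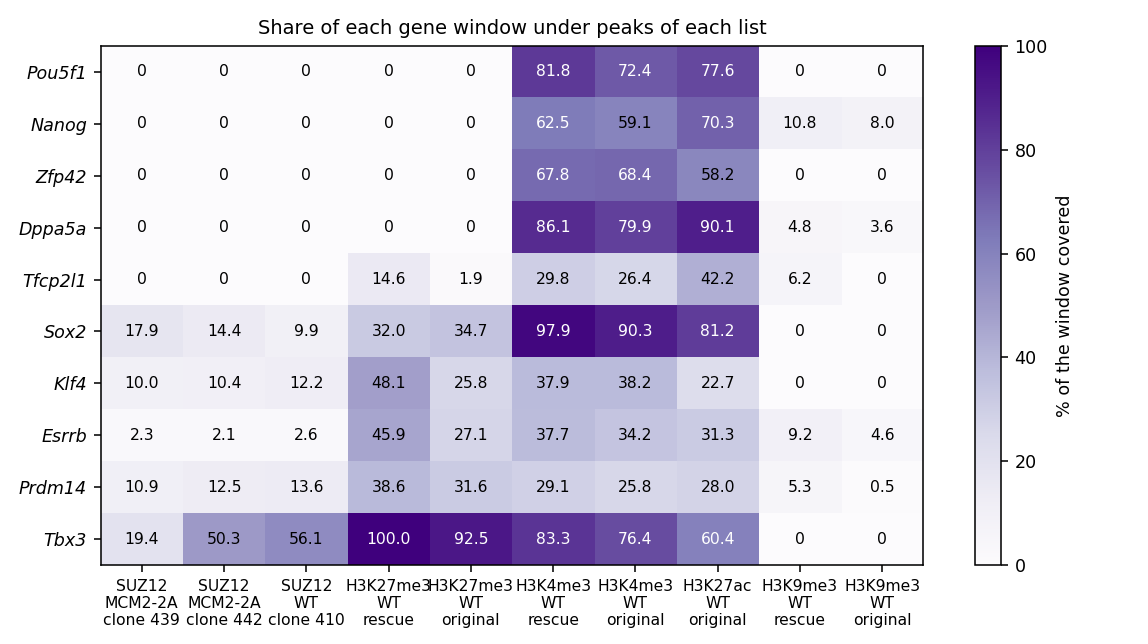
Share of each gene's window (gene body plus 10 kb on both sides) under peaks of each of the 10 lists, in percent, with darker cells for larger shares. SUZ12 and H3K27me3 are at 0 for Pou5f1, Nanog, Zfp42 and Dppa5a, Tbx3 is high for both Polycomb and active marks, and all 10 genes carry H3K4me3 and H3K27ac.

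An H3K27ac peak within the strongest 1% of the list was found at Pou5f1, Sox2, Nanog, Esrrb, Zfp42 and Dppa5a, 6 of 10 against 7.11% of all genes. Dppa5a had the strongest, a 12.0 kb peak with a fold enrichment of 40.6 (rank 228 of 128247). Sox2 (39.9), Zfp42 (38.8), Nanog (38.4), Esrrb (37.4) and Pou5f1 (28.5) followed in fold enrichment. Tfcp2l1 (19.7), Prdm14 (17.9) and Tbx3 (16.7) were lower, and Klf4, with 10.5 at rank 12897, was the lowest. All 4 genes free of SUZ12 and H3K27me3 were among the 6, and the genes with the lowest H3K27ac were Tfcp2l1 and 3 genes with SUZ12. Without replicates, neighbours in this order cannot be said to differ.

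Strong H3K27ac also lay far from some of the 10 genes. Within 150 kb, a distance chosen after seeing the data, 7 genes had 1 further H3K27ac peak each in the strongest 1% of the list, against 22.5% of all genes with at least 1. Downstream of Sox2 it was 13.0 kb wide, with a fold enrichment of 32.8 (rank 658 of 128247) and its summit 107 kb from the gene start, in the region where a distal Sox2 enhancer is known. Past the 3′ end of Klf4 it was 11.7 kb wide, with a fold enrichment of 37.2 against 10.5 for the strongest peak in the gene's own window, and its summit lay 51.3 kb below the lower-coordinate end (-51.3 kb). Below the lower-coordinate end of Prdm14 it was 3.99 kb wide with a fold enrichment of 33.4, against 17.9 in the window. None of these 3 had the end of a protein-coding gene within 2.5 kb of its summit, and H3K4me3 of the original experiment covered 87.0%, 97.4% and 83.3% of them. The corresponding peak at Nanog, with a fold enrichment of 51.4, lay at Gdf3. With this distance 8 of the 10 genes had such a peak inside or outside the window, against 26.9% of all genes.

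At some genes with matched promoter entries, H3K27ac left the annotated start itself uncovered. The share of such starts over all promoters was not computed. The annotated starts of Sox2, Klf4 and Zfp42 lay in gaps between H3K27ac peaks that reached to 3, 50 and 28 bases on the transcribed side and to 142, 262 and 147 bases on the upstream side. H3K4me3 covered the same starts in both experiments. At Tfcp2l1 an H3K27ac peak began on the start base itself, and the next peak upstream ended 138 bases away. At Nanog and both Pou5f1 starts, H3K27ac ran across the start.

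H3K27me3 was present at 6 of 10 genes in the rescue experiment (72.3% of all genes) and at the same 6 in the original one (52.0%). Tfcp2l1, a grainyhead-family factor that is a target of LIF signalling, differed most between them: its H3K27me3 was a region of 14.4 kb over the start in the rescue list and upstream regions of 0.981 and 0.531 kb in the original list. The median ratio of covered bases, rescue over original, was 1.46 at the 6 genes and 1.44 over all genes with the mark, so the larger rescue regions were a property of the whole list.

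H3K9me3 was present at 5 of 10 genes in the rescue experiment (76.8% of all genes) and at 4 of 10 in the original one (47.8%). Nanog, Esrrb, Prdm14 and Dppa5a had it in both, Tfcp2l1 in the rescue experiment only, and Pou5f1, Sox2, Klf4, Zfp42 and Tbx3 in neither. At Nanog a region of 2.13 kb (rescue) and 1.73 kb (original) lay just upstream, between -3.30 and -1.17 kb of the start. The H3K27ac peak of the Nanog promoter covered 100% of it in both cases, and H3K4me3 of the original experiment covered 95.4% and 94.3%. The Dppa5a region shared by both experiments (0.741 and 0.771 kb, about 9 kb from the lower-coordinate end) was likewise 100% under H3K27ac and under H3K4me3. A rescue region of Esrrb at +136 kb (0.801 kb) was 100% under both marks, and a rescue region of Tfcp2l1 at +12.5 kb (2.26 kb) was 61.8% under H3K4me3 and 92.7% under H3K27ac. The other Esrrb regions inside the gene were free of H3K27ac, and most of them of H3K4me3. H3K9me3 thus overlapped active marks at Nanog and Dppa5a in both experiments and at Esrrb and Tfcp2l1 in the rescue experiment, in these bulk cells.

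Of 24 other genes of the pluripotency network, 5 had SUZ12 in clone 439 and 6 in clone 442, against 3 in WT, all smaller shares than over all genes (30.8%, 32.6% and 26.5%). The 3 with SUZ12 in all lists were Gbx2, Nr5a2 and Lefty1. Gbx2, a homeobox target of LIF signalling, had the strongest: a fold enrichment of 43.8 in clone 439 and 50.0 in clone 442, against 29.0 in WT. Its rank was 13.8% and 6.19% in the clones, against 25.4% in WT, a direction opposite to that of Tbx3. Nr5a2 (44.1% and 49.0%, against 60.6%) and Lefty1 (50.5% and 68.8%, against 69.7%) also ranked stronger in both clones. So did 64.2% of the 5479 genes with SUZ12 in all 3 lists. All 24 had H3K27ac (73.4% of all genes), 7 within the strongest 1% of the list (7.11%), and 5 had an H3K4me3 peak of at least 10 kb in both experiments (0.717%). Of the 7 genes of the LIF pathway, Jak1 and Socs3 had SUZ12 in all 3 lists (25.0% of all genes). Of 17 formative and primed genes, 16 had SUZ12 in clone 439, 16 in clone 442 and 14 in WT, all larger shares than over all genes. Dnmt3b, a DNA methyltransferase, and Tcf15, a factor of the formative state, had it in both MCM2-2A clones and not in WT, 2 of 17 against 3.66% of all genes. Foxa2, with the highest WT SUZ12 fold enrichment of the 17, ranked 2.48% in clone 439 and 1.22% in clone 442, against 0.508% in WT. Pou3f1 ranked 6.89% and 5.11% in the clones, against 4.72% in WT. At Lef1 (4.44% and 8.94%, against 4.92%) and T (5.69% and 4.49%, against 5.21%) the clones lay on either side of WT. Of the 17, 1 had H3K27ac within the strongest 1% of the list, a share near that over all genes. Of 11 fibroblast markers, 5 had H3K27ac (73.4% of all genes), 0 of them within that 1%. H3K4me3 was at 9 of the 11 in the rescue experiment (83.4% of all genes) and at 8 in the original one (81.9%). The presence of a small share of other cells in the cultures was not tested.

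By the mean absolute difference of the strongest peak's rank over 5 lists (the 3 SUZ12 lists, H3K27ac and H3K4me3 of the original experiment), computed over 4342 genes, Dpysl2 was among the genes closest to Klf4, at 3.02 points. Gng12 and Il1r1 were closest to Prdm14, at 2.56 and 3.24 points. Tbx3 had no equally close neighbour: the nearest, Rab11fip5 and Zdbf2, lay 7.16 and 7.43 points away.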

How the data were processed

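Per the submitters' processing notes, reads were handled on mm10 with MACS2 2.1.0, Picard 2.20.7, BWA 0.7.15 and cutadapt 2.5; roles and caller settings are not given in the sources used. The authors deposited SUZ12, H3K4me3 and H3K27ac peaks with a ratio (fold enrichment over the local background), a score and the caller's -log10 q-value. The histone-mark lists are named as reproducible peaks, and the SUZ12 lists as peaks selected by irreproducible discovery rate. H3K27me3 and H3K9me3 regions were deposited with strength values of unknown scale (a score), used only for ranks within a list. Read depth is unknown, since the lists hold no counts.

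Peaks were assigned to a gene when at least 1 bp lay in its window, ranked by fold enrichment within each list, and matched between clones by overlap of at least 1 bp. Gene positions came from RefSeq (GRCm38.p6). The same measures over 21887 protein-coding genes served as background. Functions were checked on simulated peaks. The 10 genes and all gene lists were chosen with earlier results of these data known. All 10 genes were named, with genes of the other lists with SUZ12 in both mutants but absent from WT. Genes that led the other lists in WT fold enrichment were named except the fibroblast markers, with some of the nearest genes by rank pattern. Neighbouring genes share some windows: Tcf19, Cchcr1 and Gm32362 (Pou5f1), Sox2ot, Gm10224 (Nanog), Gm12506 and Gm34343 (Klf4), Gm40483 (Esrrb), LOC115487679 (Tfcp2l1), Gm39592 (Prdm14), Tbx3os1 and Tbx3os2, and Ooep (Dppa5a). Analyses used Python 3.11.15 with pandas 2.3.3 and numpy 2.4.6.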

Additional observations from a re-analysis of the deposited data

How the results depend on the processing

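No paired analysis was possible because the deposited lists combine the replicates of each clone; for the same reason no replicate could be left out in turn. The number of genes with SUZ12 in clone 439, clone 442, both clones and WT was 5 in each case and stayed at 5 with 50% of a peak required inside the window, with peaks within 1 kb merged, with equal numbers of SUZ12 peaks per list (6298) and with either MCM2-2A clone alone. Restricted to 2.5 kb around the gene ends, each of these counts was 3. In the stronger 50% of each list it was 2 in clone 439, 1 in clone 442, 1 in both clones and 3 in WT. H3K27me3 of the original experiment was at 3 genes both within the gene body alone and within 2.5 kb of the gene ends, and H3K27me3 of the rescue experiment at 10 genes within 50 kb. H3K9me3 of the rescue experiment was at 3 genes in the gene body, at 3 near the gene ends, at 10 within 50 kb and at 3 in the stronger 50% of its list. H3K9me3 of the original experiment was at 1 gene in the gene body, at 1 near the gene ends and at 9 within 50 kb. Klf4, Esrrb and Tbx3 were the 3 genes ranked weaker in both MCM2-2A clones by fold enrichment, and the same 3 were found by -log10 q, by width and with equal numbers of peaks. By -log10 q the margin in clone 442 was small at Esrrb (9.52%, against 8.92% in WT) and at Klf4 (61.4%, against 59.6% in WT). Of the 15 best ranks of the 5 genes in the 3 clones, 12 moved by over 1.5 times when peaks were ranked by width and 0 when ranked by -log10 q. Differences rest on 1 list per clone, and a missing peak means only that no peak passed the caller and the reproducibility filter.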
